A study of Caenorhabditis elegans with 4 samples.

Results

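LIN-37 peaks on chromosome V of Caenorhabditis elegans are the rows for V in the combined peak list of a ChIP-seq series on late embryos. They number 304 of the 1932 peaks in that list. The members were chosen by chromosome alone, so position, spacing, width, score and replicate support are all free of the rule. The replicate 1 list holds 329 peaks on V and the replicate 2 list holds 281.

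The series has 4 samples. In 2 ChIP libraries, chromatin bound by LIN-37 was pulled down with a rabbit polyclonal antibody against the full-length protein, purified by affinity. The other 2 libraries are input DNA, for which no peak list was analysed here. All came from wild-type hermaphrodites of strain N2 at 20 degrees Celsius. Embryos were bleached out of gravid adults from liquid culture, held for 3.5 hours in M9 and frozen, with no further treatment. Whole embryos were used, so a peak is an average over all their cells. Nothing in the labels ties the replicates to separate cultures, so agreement between the lists may be technical only.

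LIN-37 is a core subunit of the DREAM complex, which joins an E2F-DP pair and a retinoblastoma-like protein to the MuvB proteins. The complex is known in worms for keeping cell cycle and germline genes off in somatic cells, and it usually sits near gene starts. Chromosome V is the longest worm chromosome and is known for its large families of chemoreceptor genes. As on the other worm autosomes, recombination is low in its centre and high in its arms, and the arms are the richer in repeats and in heterochromatin marks. The peaks were not assigned to genes here, because the annotation used here is of a build other than WormBase WS210, that of the files.

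On V, the peaks were spread over the whole chromosome and nowhere missing on the scale of 1.04 Mb. Length was taken as the highest peak end in any list, 20.84 Mb, and it was cut into 4 segments of 25%, named left arm, left centre, right centre and right arm. The left arm held 73 peaks, the left and right centre held 85 each and the right arm held 61. The centre was therefore the fuller part, with 16.3 peaks per Mb in each of its segments, against 14.0 in the left arm and 11.7 in the right arm. The arms themselves did not differ beyond counting error, as 73 of 134 arm peaks lay on the left (54.5%, 95% interval 45.7 to 63.1, exact binomial test, adjusted p = 0.456). Among V peaks in the upper 50% of the list by score, however, the left arm held 68.4% of 57 arm peaks (adjusted p = 0.0150 in the same exact test). No other alternative for the arms passed. Among peaks supported by both replicates, the left arm held 59.6% of 99 arm peaks (adjusted p = 0.105 in the same exact test).

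In the replicate lists the same segments, from left to right, held 84, 89, 90 and 66 peaks in replicate 1 and 69, 80, 84 and 48 peaks in replicate 2. The right arm was the emptiest segment in all 3 lists. In windows of 5% of the length, the combined list had between 9 and 22 peaks, with a median of 14.5. Windows 9 and 15, at 40 to 45% and at 70 to 75% of the length, were the fullest with 22 peaks each. Window 17, at 80 to 85%, had the fewest. Peaks covered 15.1 to 49.4 kb of a window, and 570.1 kb or 2.74% of V in all. Every window had at least 1 peak with a score of 3100 or more, the value at which the deposited scores pile up.

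**Figure D1:**
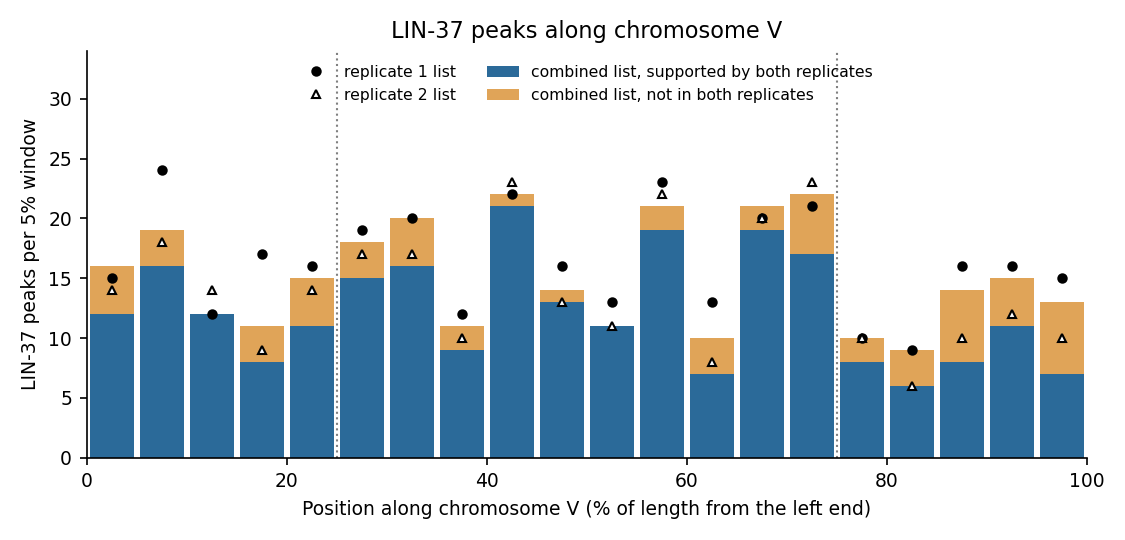
Number of LIN-37 peaks (y axis) in 20 windows along chromosome V (x axis, % of length); bars are the combined list split by replicate support, circles and triangles are the replicate 1 and replicate 2 lists, and dotted lines mark 25% and 75%. Counts lie between 9 and 22 per window in the combined list, and the 5 windows of the right arm reach no more than 15.

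V was the sparsest autosome. It had 14.6 peaks per Mb, while I had 28.0, II had 23.0, III had 30.2 and IV had 19.6. Relative to I to IV together, with 24.9 per Mb, the density on V was 0.59 times as high (95% interval 0.52 to 0.66, exact binomial test on length, adjusted p = 1.63e-18). The ratio lay between 0.56 and 0.59 in every alternative tried, both replicate lists included. Chromosome X was sparser still, at 5.48 per Mb.

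V had the largest central share of the autosomes. The central 50% of its length held 170 of 304 peaks (55.9%, 50.1 to 61.6), against 687 of 1531 (44.9%, 42.4 to 47.4) on I to IV. The odds ratio was 1.56 (1.21 to 2.01, Fisher's exact test, adjusted p = 0.00157). Single shares on the other autosomes were 45.5% on I, 42.2% on II, 47.6% on III and 43.6% on IV, all below V. With the central 33.3% in place of the central 50%, V held 33.9% and I to IV 28.8%, and the difference did not pass the test (Fisher's exact test, adjusted p = 0.171). These tests take each peak as independent, although peaks cluster, so their p-values can be too small.

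**Figure D2:**
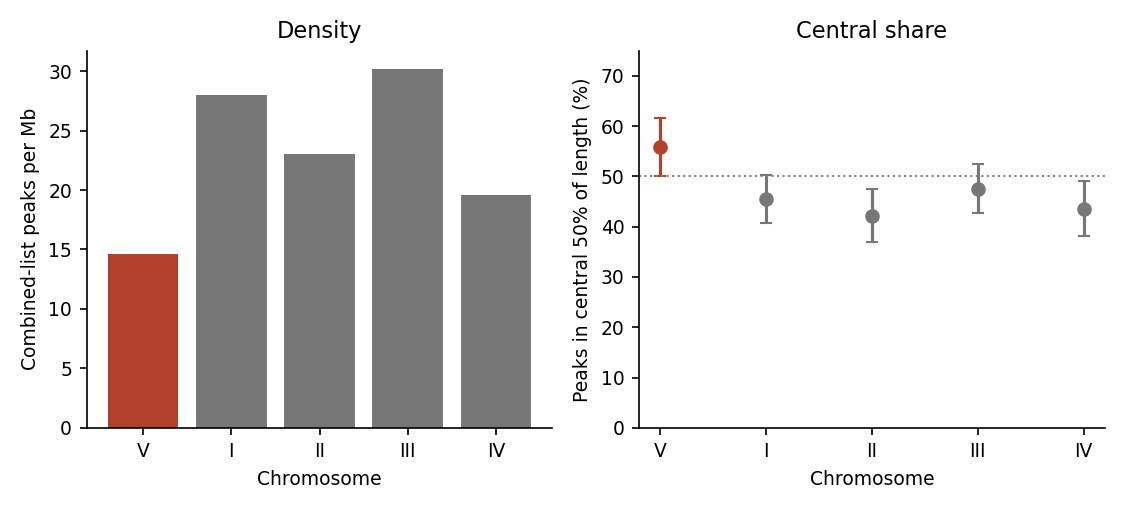
Combined-list peaks per Mb (left) and share of peaks in the central 50% of the length with exact 95% intervals (right), for V in red and for I to IV in grey; the dotted line marks 50%. V has the lowest density, 14.6 per Mb, and the highest central share, 55.9%.

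In score and width, no difference between V and the other autosomes passed the test. On V, 100 of 304 peaks had a score of at least 3100 (32.9%, 27.6 to 38.5), against 470 of 1531 on I to IV (30.7%, 28.4 to 33.1), and the share over all chromosomes was 30.0%. The odds ratio was 1.11 (0.84 to 1.45, Fisher's exact test, adjusted p = 0.456). Peaks wider than 1662 bp, the autosomal median, made up 52.3% on V and 49.5% on I to IV. That odds ratio was 1.12 (0.87 to 1.44, Fisher's exact test, adjusted p = 0.456). The intervals leave room for modest differences in either direction.

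Replicate support was then counted for each peak. A peak was supported if it overlapped a peak of each replicate list by at least 1 bp. On V, 246 of 304 peaks were supported (80.9%, 76.0 to 85.2), against 1305 of 1531 on I to IV (85.2%, 83.4 to 87.0), and 84.2% of all peaks in the list were. The odds ratio of 0.73 (0.53 to 1.03) did not pass the test (Fisher's exact test, adjusted p = 0.136). Of the other V peaks, 32 had a partner only in replicate 1, 20 had one only in replicate 2 and 6 had none.

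The 58 peaks without full support were low in the list's own score. Their median was 67.0 and none exceeded 338.78, while the 246 supported peaks had a median of 2139. Of 52 V peaks scoring under 100, 7 were supported (13.5%, 5.59 to 25.8), against 46 of 202 such peaks on I to IV (22.8%, 17.2 to 29.2). From 100 to under 500, the share was 85.4% of 89 peaks on V and 85.1% of 471 on I to IV. At 500 or more, support was complete on V, with 163 of 163 peaks (exact interval from 97.8%). It was just as complete on I to IV, with 858 of 858. Score and support both come from the same series and are not separate evidence.

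The 6 peaks in neither replicate scored from 50.19 to 72.41, and 5 of them lay in the right arm. The highest spanned V:18775490-18777613 (72.41), followed by V:17942951-17945151 (60.91), V:6095492-6097018 (59.45), V:20299459-20301283 (58.45) and V:19193702-19195109 (55.60). The one at V:6095492 is the only one of the 6 in the centre.

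The right arm was also lowest in support and in score, a contrast chosen after its values were seen and therefore not tested. Support was 80.8% in the left arm, 87.1% and 85.9% in the central segments and 65.6% (40 of 61, 52.3 to 77.3) in the right arm. The median score in the same order was 814.43, 577.10, 2362 and 230.29. At least 3100 was scored by 24 of 73, 29 of 85, 35 of 85 and 12 of 61 peaks. Both replicate lists gave the right arm their lowest median score, 185.73 in replicate 1 and 237.62 in replicate 2. Each of them had 7 right-arm peaks at 3100 or more, of 66 and of 48.

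Low scores and missing support went together there. Of right-arm peaks, 26.2% scored under 100, against 14.8% in the other segments together. Among these low scorers, 0 of 16 in the right arm were supported (upper 95% limit 20.6%) and 7 of 36 elsewhere on V. From 100 to under 500, 18 of 23 right-arm peaks (78.3%, 56.3 to 92.5) and 58 of 66 others (87.9%, 77.5 to 94.6) were supported. At 500 or more, all 22 in the right arm and all 141 elsewhere were. Width moved less in the combined list. Its median was 1610 bp in the right arm and 1634, 1713 and 1693 bp in the other segments from left to right. Each replicate list also had its lowest median width in the right arm. In replicate 1 it was 736.5 bp, against 832, 941 and 933 bp in the other segments. In replicate 2 it was 1318.5 bp, against 1519, 1625.5 and 1517.5 bp. The last 25% of the other autosomes had support of 88.1% on I, 83.7% on II, 80.4% on III and 80.0% on IV. The first 25% had support of 79.8% on I, 73.3% (61.9 to 82.9) on III and 87.3% on IV, and on II 60 of 80 peaks (64.1 to 84.0%) were supported. The intervals of most of these segments overlapped that of the right arm of V. Those that did not were the last 25% of I (from 80.2%) and the first 25% of IV (from 79.9%). Among all these arm segments, the lowest median score on another autosome was 296.91, in the last 25% of IV.

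**Figure D3:**
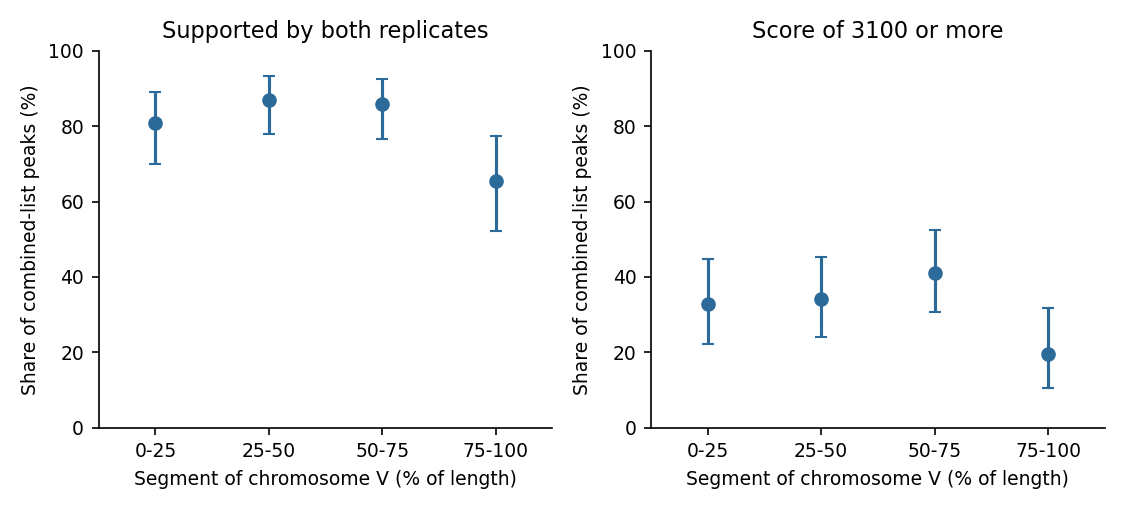
Share of combined-list peaks on V supported by both replicates (left) and with a score of 3100 or more (right), by segment of 25% of the length, with exact 95% intervals. The right arm is lowest in both panels, at 65.6% and 19.7%.

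The replicate lists were also compared directly on V. Of the 329 replicate 1 peaks, 257 overlapped a replicate 2 peak (78.1%, 73.3 to 82.5), beside 80.1% for that list over all chromosomes. Of the 281 replicate 2 peaks, 250 overlapped a replicate 1 peak (89.0%, 84.7 to 92.4), beside 89.5% over all chromosomes. Peaks without a partner had a median score of 83.5 in replicate 1 and 78.2 in replicate 2, while those with a partner had medians of 1358 and 1150. The combined list left out 40 replicate 1 peaks and 11 replicate 2 peaks. Their scores reached no more than 162.73 in replicate 1 and 143.60 in replicate 2. Of these, 38 and 9 also lacked a partner in the other replicate.

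Where peaks of both replicates overlapped, their centres lay close. Overlap was a condition of being matched, so part of this closeness is built in. The 250 mutual best matches on V had centres a median of 48.0 bp apart, and 90% of them lay within 355.2 bp. Their scores ranked alike, with a Spearman's rho of 0.93 across the 250 peaks and 0.86 across the 166 in which neither score had reached 3100. The points share 2 libraries and are not independent, so no p is given. Both scores were at 3100 or more in 67 matches, replicate 1's alone in 12 and replicate 2's alone in 5.

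**Figure D4:**
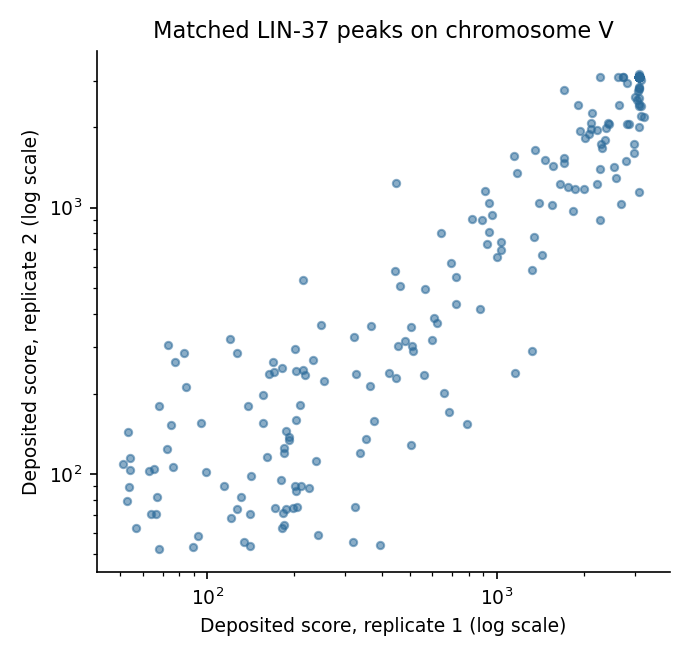
Deposited score of each of the 250 matched peaks on V in replicate 1 (x axis) and replicate 2 (y axis), both on log scales. Points run along the diagonal (rho 0.93), spread most at the low end, and pile up at 3100 on both axes.

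Widths depended on the list far more than on the place on V. The combined list had a median of 1697.5 bp, and its middle 50% ran from 1232 to 2180 bp. The replicate 2 median was 1534 bp and that of replicate 1 was 875 bp. Replicate 2 was the wider in 246 of the 250 matches, by a median factor of 1.51 (quartiles 1.28 and 1.79). In 228 matches the replicate 1 peak lay wholly inside its partner. Across the 304 combined-list peaks, wider ones tended to score higher (Spearman's rho 0.56, a description without a test). The 100 peaks at 3100 or more had a median width of 2115 bp and the other 204 had one of 1404.5 bp.

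The widest peaks on V were of unlike kinds. The peak at V:2418517-2427418 was 8902 bp wide and scored 3100. It held a single replicate 1 peak of 2372 bp, scoring 3100, and a pair of replicate 2 peaks. Of that pair, V:2419659-2422551 scored 3100, while the wider V:2422718-2425999, of 3282 bp, scored 78.19. The next, V:3434185-3441679, was 7495 bp wide but scored only 338.78. Replicate 2 had it as a single peak of 7437 bp scoring 578.39, and replicate 1 had none there. V:2528181-2533740 was 5560 bp wide, with 5476 bp in replicate 2 and 2306 bp in replicate 1, all 3 at a score of 3100.

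Another 3 wide peaks were built differently. V:15186239-15191568 (5330 bp, score 3100) was made up of 2 peaks in each replicate, the widest of 2438 bp in replicate 1 and 3114 bp in replicate 2. V:9543194-9547570 (4377 bp), the widest of the left centre, held 2 replicate 1 peaks and 1 replicate 2 peak of 4366 bp. V:19627931-19632848, the widest of the right arm, was 4918 bp wide and scored 214.88. Its replicate 1 peak (V:19630693-19631801, score 157.46) and its replicate 2 peak (V:19627955-19629054, score 57.52) did not touch. It was the only supported peak on V in which the replicates shared no base. In all, 11 V peaks spanned 2 replicate 1 peaks and 4 spanned 2 replicate 2 peaks.

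Spacing on V differed from that on I to IV together mainly in its long gaps. Between neighbouring peaks the median gap was 41.7 kb on V (quartiles 8.70 and 91.7 kb) and 22.6 kb on I to IV (quartiles 7.26 and 51.5 kb). Close neighbours were about as frequent, since 36 of 303 gaps on V (11.9%) and 178 of 1527 on I to IV (11.7%) were under 2 kb. Gaps over 200 kb numbered 18 on V and 22 on the 4 other autosomes together. Of those 22, 11 lay on IV, 8 on II, 2 on I and 1 on III. X had 27 among its 96 gaps. Medians from left to right were 32.3, 42.5, 35.5 and 46.9 kb within the segments of V. These are descriptions. Fewer peaks per Mb lengthen the mean gap by arithmetic, and whether the spacing on V differs beyond that was not tested.

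**Figure D5:**
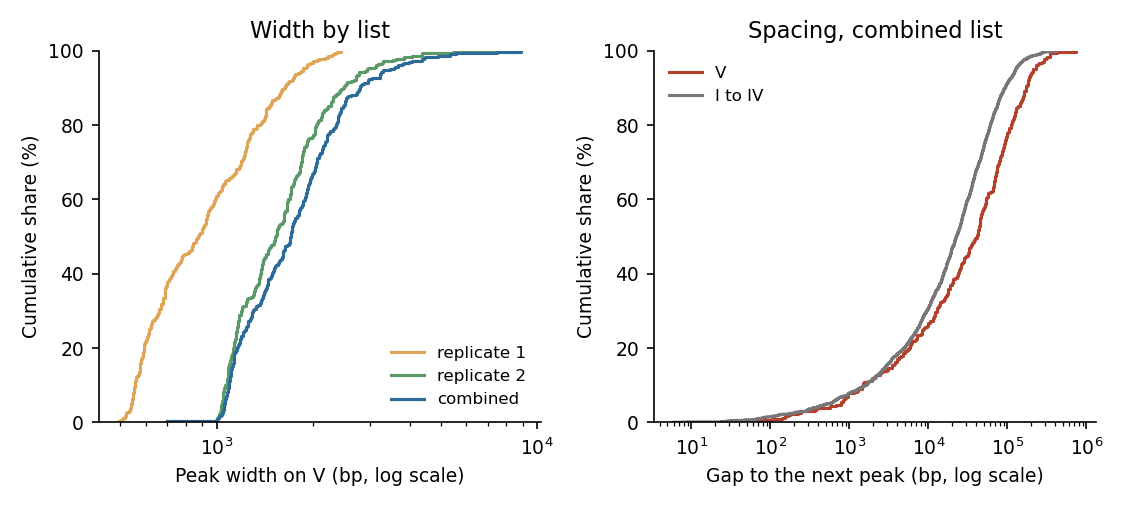
Cumulative share of V peaks by width in each list (left) and of gaps between neighbouring combined-list peaks on V and on I to IV (right), with log x axes. Replicate 1 is the narrowest list (median 875 bp), and the curves of gaps nearly meet under 2 kb and part above 10 kb.

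The longest stretch without a peak lay in the left arm. It ran for 738892 bp from V:2693997-2695292 (score 786.71) to the wide peak at V:3434185. In replicate 1, which lacks that wide peak, the longest gap on V was 812084 bp. The second longest, 423676 bp, separated V:11076731-11079146 (2362.38) from V:11502823-11504433 (2147.70) in the middle of the chromosome. The third, 347294 bp, separated V:355763-357047 (378.50) from V:704342-705760 (582.78). All of these flanking peaks but the wide one were supported by both replicates.

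Close neighbours were also separate in the replicate lists, but part of this is built in. The median width was 1697.5 bp in the combined list, 1534 bp in replicate 2 and 875 bp in replicate 1. A gap left between wider peaks is hard for a narrower peak to bridge. None of the 36 gaps under 2 kb was bridged by a single peak of either replicate. In 24 of them each replicate had a separate peak on both sides, and in the other 12 at least 1 side was missing from a replicate. In 12 pairs exactly 1 member scored 3100 or more, and in 1 pair both did. The shortest gap, 70 bp, lay between V:16039816-16041494 (387.36) and V:16041565-16043153 (108.44), the second of which had no replicate 2 peak. The next, of 83 bp, lay between V:9087190-9088706 (308.76) and V:9088790-9091839 (191.68), and that of 105 bp between V:5776542-5777715 (302.59) and V:5777821-5780379 (149.32). Chains of peaks under 2 kb apart took in 64 of the 304 peaks (21.1%) in 28 groups, of which 23 were pairs. Leaving the fullest window of 100 kb out took 7 of the 36 short gaps with it.

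That window, V:8800001-8900000, held 11 peaks in each of the 3 lists, and all 11 were supported. Of the 209 windows of 100 kb on V, 71 had no peak and only 15 had 4 or more. The 11 peaks fell into a repeated layout, which was noticed after their positions were seen and is given without a test. The first stood alone at V:8825016-8826149, followed at a centre distance of 19039 bp by a chain of 4 peaks (V:8843734-8854321). The sixth stood alone at V:8867107-8868259, followed by a chain of 5 (V:8884823-8898917).

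Centre to centre, the first 5 peaks and the next 5 were offset by nearly the same distance. In replicate 1 the 5 offsets ran from 42091.5 to 42111.5 bp. In replicate 2 they ran from 42089.5 to 42112.5 bp for 4 of them, and the fifth was 41848.5 bp. In the combined list 4 lay between 42067.5 and 42106.5 bp, and the offset from the second to the seventh peak was 41590 bp. The replicate 1 offsets thus differed among themselves by no more than 20.0 bp.

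Scores in the window were alike in some of the 5 pairs and unlike in others. The solitary peaks had combined-list scores of 1510.54 and 1493.62, replicate 1 scores of 913.29 and 939.78, and replicate 2 scores of 1159.54 and 1042.36. The first peaks of the chains had combined-list scores of 1233.65 and 913.94. The third pair scored 186.41 and 150.19, the fourth 359.49 and 204.94, and the fifth 68.72 and 326.94 in that list. The solitary peaks and the first of each chain were 669 to 772 bp wide in replicate 1, 1123 to 1839 bp in replicate 2 and 1134 to 2778 bp in the combined list. The other 7 had combined-list scores of 68.72 to 499.88, replicate 1 scores of 53.39 to 246.42 and replicate 2 scores of 89.82 to 364.10. They were 1219 to 1340 bp wide in replicate 1. In replicate 2 they were 1610 to 2028 bp wide and in the combined list 1652 to 1735 bp. The groups were split by replicate 1 width, so ranges apart in that list follow from the split. The width ranges overlapped in the other lists. No sequence of this build was used here, so whether the 2 stretches share sequence was not tested.

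The second fullest window, V:1800001-1900000, held 8 combined-list peaks, 9 in replicate 1 and 6 in replicate 2. Its peaks ranged more widely in score, from 68.61 for V:1804629-1805746 to 3100 for V:1867517-1870235. That peak was followed after 384 bp by V:1870620-1873244, with a score of 336.55. Of the 8 peaks, 6 were supported and 2 had a replicate 1 peak only. Their gaps ran from 154 to 45624 bp.

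Each of the 4 V peaks scoring above 3100 matched a single peak in each replicate. This did not hold for all peaks at exactly 3100, as V:15186239-15191568 held 2 peaks of each replicate. V:14990160-14991851 had a combined-list score of 3228.29, a replicate 1 score of 2543.11 and a replicate 2 score of 1420.08, with widths of 1692, 1406 and 1564 bp. V:20712284-20713779, the last peak of the chromosome, scored 3227.04, 2291.82 and 1734.11 in the same lists. V:9645074-9647217 scored 3218.01, 3225.28 and 2188.42. V:964283-966669, with the highest score of the left arm, had 3114.44, 2817.27 and 2053.54. These 4 are the only V peaks above 3100, and 96 more sit at exactly that value, so the score does not rank them. V:155014-157382 is the first of the 96 by position and scored 3100 in all 3 lists. Of the 100 peaks at or above 3100, 68 also reached it in both replicates, 15 in a single replicate (11 in replicate 1) and 17 in none.

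The ends of V were unlike. The first peak, V:1-700, lacked a start in the file and was read from position 1. Its combined-list score was 190.40. Replicate 2 had the same 700 bp at 920.03, and replicate 1 had no peak there. At the other end, the last combined-list peak at V:20712284-20713779 was supported by both. Replicate 1 alone had a further peak at V:20839300-20839893, with a score of 100.41, and its end set the length used for V.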

How the data were processed

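Peak lists from 2 LIN-37 ChIP libraries and 1 combined list of the series were used. Coordinates are 1-based in WormBase WS210, per the file headers, and had been lifted over from another build, a step whose only noted change was on chromosome III. The deposited score belongs to features named for MACS, per the file headers and feature names, with MA2C in the source column. The score's scale, the aligner, the caller's version, the control, filters and whether the combined list came from pooled reads are all not given in the sources here. Scores were therefore read within a list, and depth is unknown.

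Per the labels' protocols, chromatin was fixed in 1% formaldehyde for 10 minutes and libraries were amplified for 18 cycles and size-selected at 250 to 350 bp.

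A missing start was read as 1, and peaks overlapped at 1 bp or more. Peaks were placed by their midpoint. Shares carry exact Clopper-Pearson 95% intervals, which cover counting error only. V was set against I to IV with two-sided Fisher's exact or exact binomial tests. The arms of V were tested against equal numbers with a two-sided exact binomial test. Benjamini-Hochberg adjustment ran over these 6 tests (Python 3.11.15, SciPy 1.17.1). Overlaps and tests were tested on simulated data. Members, tests and the rule for naming peaks (extremes of position, width, score, gap and window, and by segment) were chosen with earlier results of these data known.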

Additional observations from a re-analysis of the deposited data

How the results depend on the processing

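Of 55 alternatives, 46 left direction and call as they were, or moved a value by less than the replicates' SD. Counting peaks under 2 kb apart as 1 region, and leaving out the fullest 100 kb window of V, were chosen after seeing the data and changed no call. With the central 33.3%, the central share of V was 33.9%. In the upper 50% by score, the left arm held 68.4% of arm peaks, which passed the test, and the share of wide V peaks reversed to 49.3%, against 50.0% on I to IV. The median gap on V (41717 bp) was 82065 bp in the upper 50% by score, where fewer peaks enter, 45243 bp among supported peaks and 37679 to 42302.5 bp in the replicates' own lists. The median width (1697.5 bp) was 875 to 1534 bp in those lists. With 50% of both lengths shared, replicate overlap on V was 63.8% of replicate 1 and 74.7% of replicate 2 peaks. Support under that rule was 59.5% on V and 60.5% on I to IV. Without replicate 1, support was 87.5% on V and 90.5% on I to IV. Without replicate 2 it was 91.4% on V and 92.4% on I to IV. In the replicates' own lists the density ratio was 0.56 to 0.57, the central share 54.4 to 58.4%, the left share of arm peaks 56.0 to 59.0%, the share at 3100 or more 24.3 to 25.6% and the share of wide peaks 52.3 to 53.5%. No paired analysis was possible because the only groups with shared numbers are ChIP and input, and no input list was used. The causes of these changes were not tested. Since depth is unknown, its part in peaks missing from a list was not tested.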
